A study of Mus musculus with 4 samples.

Results

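Iron importers and ferrireductases are the proteins that bring iron into cells and change its redox state on the way. The 8 genes followed were chosen as a list and not by a threshold on their values: the divalent metal transporter Slc11a2, which encodes Dmt1, the transferrin receptor Tfrc, the metal carriers Slc39a14 and Slc39a8, and the metalloreductase family Steap1, Steap2, Steap3 and Steap4. All 8 were among the 22180 genes of the table and among the 12060 kept on level. Each had 1 probe set annotated to it alone and no probe set shared with another gene.

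Iron bound to transferrin is taken up by endocytosis of the transferrin receptor, and ferric iron must be reduced before a divalent metal transporter can move it across a membrane. When cells are short of iron, iron regulatory proteins bind the Tfrc mRNA and stabilise it. In the intestine Dmt1 is best known as the apical importer of dietary iron in the duodenum, and iron uptake has been studied as a requirement of colon tumour growth.

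The 4 arrays, Affymetrix whole-transcript chips, were 1 each of F/F tumour, wild-type tumour, F/F normal colon and wild-type normal colon, from C57BL/6 mice aged 3 months. F/F stands for the genotype Dmt1F/F with ApcF/+, and wild-type for Dmt1+/+ with ApcF/+, so that all groups shared the ApcF/+ allele and the name CDX2, which the labels do not explain. F by convention marks an allele flanked by loxP sites, and the labels do not say which cells had lost Dmt1. The design text counts 4 F/F and 7 wild-type animals, without saying how they map to the arrays or whether RNA was pooled, and with 1 array per group no difference between 2 arrays has a replicate check. Values are log2 signals, log2 4.67 is the median level of all genes, which a kept gene reached on at least 1 array, and levels of different genes cannot be compared with each other on arrays. Epithelial markers (8 of 8 kept) averaged log2 10.4 in F/F tumour and 10.2 in wild-type tumour, while normal colon had 10.6 in F/F and 10.5 in wild-type mice. Epithelial RNA was thus present on every array, and these signals do not give the share of epithelial cells. In whole tissue, fewer cells of a type and less RNA per cell cannot be told apart. The labels do not say where along the colon the pieces were taken. The posterior gene Hoxd13, shown here because it stood far apart, was at 3.02 in F/F normal colon against 6.86 in wild-type normal colon. Of 11 kept genes of position along the colon, 3 were lower by 2-fold or more in F/F normal colon: Hoxd13, Hoxb13 and Hoxd11. Another 2, Osr2 and Slc10a2, were higher there by 2-fold or more. Between the tumours 1 of the 11 was higher in F/F and 0 were lower. The part of position in the genotype differences of normal colon was not tested.

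**Figure D1:**
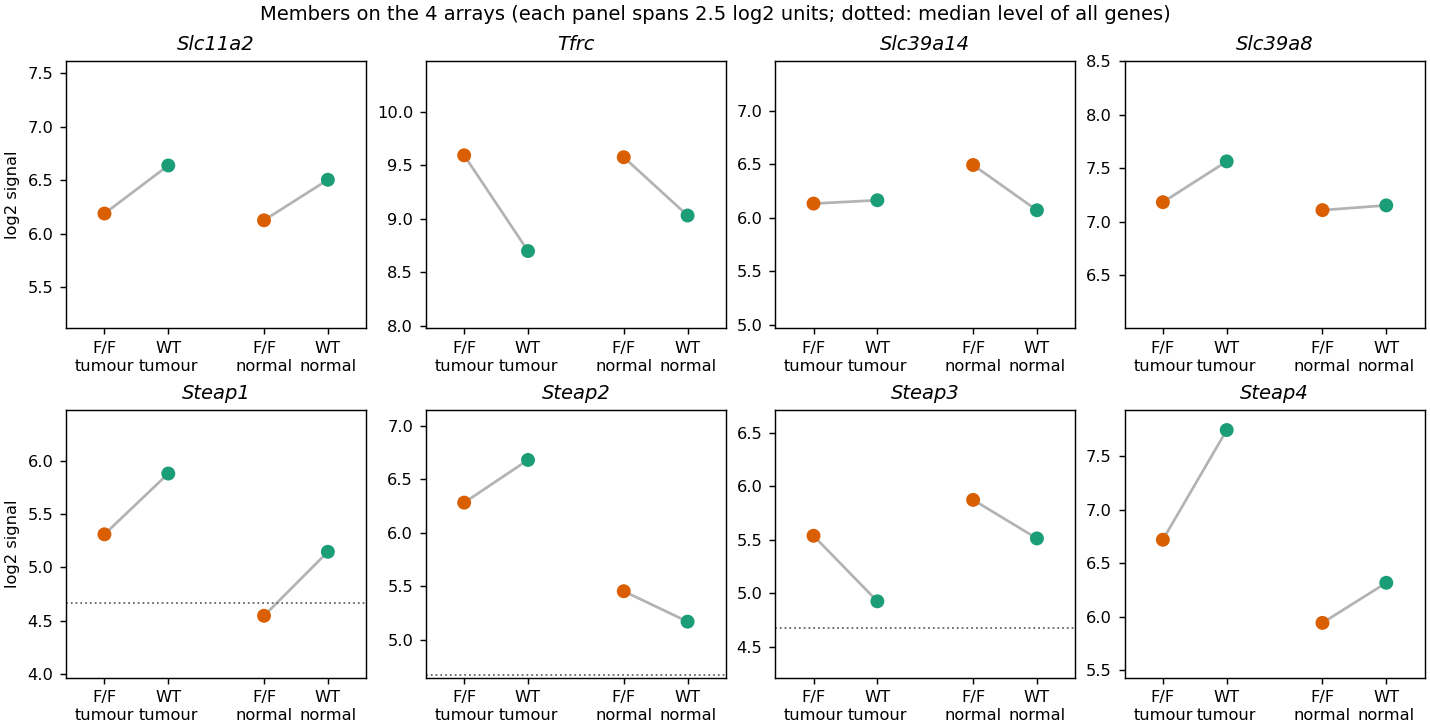
Log2 signal (vertical axis) of each of the 8 genes on the 4 arrays; each point is 1 array, F/F in orange and wild-type in green, with a grey line joining the genotypes within a tissue. Tfrc and Steap3 were higher in F/F in both tissues and Slc11a2, Steap1 and Steap4 lower, while Steap1, Steap2 and Steap4 were higher in tumours of both genotypes. Every panel spans 2.5 log2 units, and the dotted line marks the median level of all genes (log2 4.67).

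The comparison of genotypes asks how the other import genes stood where Dmt1 was floxed. Slc11a2, the floxed gene itself, was at log2 6.19 in F/F tumour and 6.64 in wild-type tumour, and at 6.13 in F/F normal colon and 6.51 in wild-type normal colon. Both F/F arrays lay below both wild-type arrays. The array differences were -0.45 in tumour and -0.38 in normal colon, which is 0.732-fold and 0.769-fold. The stretch of the gene read by the probe set was not examined, so these values do not measure how much of the allele was lost. Tissue made little difference within a genotype: tumour minus normal was 0.06 in F/F and 0.13 in wild-type mice, and the F/F value turned negative under 3 other normalizations (-0.01 to -0.06).

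Tfrc, the receptor for iron-loaded transferrin, went the other way. It was at log2 9.59 in F/F tumour and 8.70 in wild-type tumour, and at 9.57 in F/F normal colon and 9.03 in wild-type normal colon. The F/F arrays were nearly alike, and both were above both wild-type arrays. The array difference was 0.89 in tumour, or 1.86-fold, which 2.31% of kept genes equalled or passed, and 0.55 in normal colon, or 1.46-fold, which 4.68% of kept genes equalled or passed. Tumour minus normal was 0.02 in F/F mice and -0.33 in wild-type mice. The proliferation list, of which 11 of 12 genes were kept, had median differences of -0.07 in tumour and 0.17 in normal colon between the genotypes, and all kept genes had medians of -0.02 and 0.04. B cell markers (7 of 8 in the table, all kept) stood out on the F/F tumour array, where they averaged log2 6.25, against 4.36 in wild-type tumour; in normal colon they averaged 4.22 in F/F and 4.69 in wild-type mice. Of these 7, 3 reached the median level of all genes on the F/F tumour array alone, so they were kept only through the array where they were high. The largest difference between F/F and wild-type tumour among them was that of Ms4a1 (2.65), which was -0.70 in normal colon. The part of B cells in the tumour values was not tested.

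The sequence before the Tfrc start is shown because hypoxia-inducible factors are known to act on this gene, and capitals mark matches to the HIF core ACGTG on either strand. It is RefSeq sequence of build GRCm38.p6, chr16:32608646-32608945, plus strand, 250 bases before and 50 after the most upstream annotated start.
Tfrc promoter: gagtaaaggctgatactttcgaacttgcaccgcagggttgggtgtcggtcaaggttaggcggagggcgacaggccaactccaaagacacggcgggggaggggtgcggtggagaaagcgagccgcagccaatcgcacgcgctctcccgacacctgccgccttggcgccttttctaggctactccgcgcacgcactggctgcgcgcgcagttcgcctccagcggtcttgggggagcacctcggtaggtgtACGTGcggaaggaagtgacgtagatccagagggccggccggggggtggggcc

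The window held 1 match, which overlaps the start, and 19.6% of 27025 windows of the same length held at least 1. This motif was chosen after the window was seen, so the share is no test of the match. Among 12 kept genes of the hypoxia list, the median difference between F/F and wild-type was 0.11 in tumour and 0.17 in normal colon, against medians of -0.02 and 0.04 over all kept genes. Epas1, which encodes HIF-2 alpha, was at log2 7.48 in F/F tumour and 6.94 in wild-type tumour, and at 8.05 in F/F normal colon and 7.54 in wild-type normal colon; both F/F arrays exceeded the wild-type array of the same tissue. Others of the list went both ways, with Car9, a carbonic anhydrase, at 1.04 in tumour and Pfkfb3, a regulator of glycolysis, at -0.54 in both tissues.

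Steap3 is the ferrireductase of the transferrin cycle in erythroid precursors, where it acts in the endosome on iron released from transferrin. Its level was log2 5.54 in F/F tumour and 4.92 in wild-type tumour. In normal colon it was 5.87 in F/F and 5.51 in wild-type mice. As with Tfrc, the F/F arrays were above the wild-type arrays, although F/F tumour exceeded wild-type normal colon by a log2 difference of only 0.02. F/F minus wild-type was 0.61 in tumour, a 1.53-fold difference that 4.96% of kept genes equalled or passed, and 0.36 in normal colon. Of 8 erythroid markers, 4 were in the table, and none of these (Klf1, Epor, Slc4a1 and Hemgn) reached the median level of all genes on any array.

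**Figure D2:**
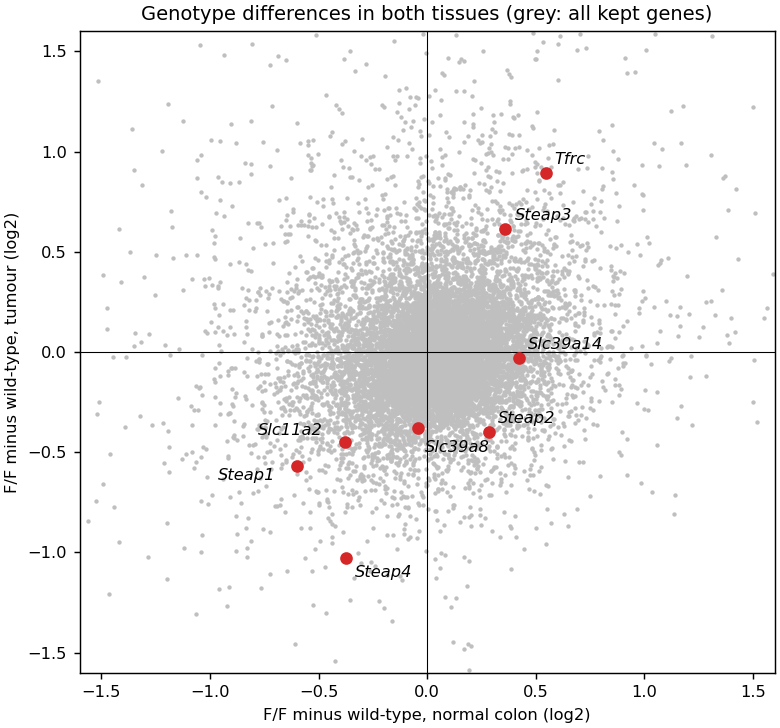
F/F minus wild-type in normal colon (horizontal axis, log2) against the same difference in tumour (vertical axis, log2); each grey point is 1 of the 12060 kept genes and red points are the 8 import and reductase genes. Tfrc (0.55 and 0.89) and Steap3 (0.36 and 0.61) lie in the upper right, and Steap4 (-0.37 and -1.03), Steap1 and Slc11a2 in the lower left; 88 genes beyond 1.6 on an axis are outside the frame.

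Steap4 and Steap1 in both tissues, and Steap2 in tumour, were lower in F/F than in wild-type mice. Steap4, a metalloreductase known to be induced by inflammatory cytokines, had log2 6.72 in F/F tumour and 7.75 in wild-type tumour. In normal colon it had 5.94 in F/F and 6.32 in wild-type mice. The difference of -1.03 in tumour, or 0.491-fold, was equalled or passed downwards by 0.456% of kept genes, and that of -0.37 in normal colon by 9.46%. Steap1 lacks the reductase domain that binds NADPH in the other family members. It was at log2 5.31 in F/F tumour and 5.88 in wild-type tumour, and at 4.55 in F/F normal colon, below the median level of all genes, and 5.15 in wild-type normal colon. Its differences were alike in size, -0.57 in tumour and -0.60 in normal colon.

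By a threshold of 2-fold, Steap4 in tumour was the 1 of the 8 genes lower in F/F, where 0.506% of all kept genes were lower, and none was higher (1.7% of kept genes). In normal colon no member was higher (0.713% of kept genes) or lower (0.904%). At 1.5-fold, Tfrc and Steap3 were higher in F/F tumour (5.36% of kept genes) and Steap4 alone was lower there (2.88%). In F/F normal colon no member was higher at 1.5-fold (3.72%) and Steap1 alone was lower (4%). The median of the 8 differences was -0.39 in tumour and 0.12 in normal colon, against -0.02 and 0.04 over all kept genes. Both F/F arrays were above both wild-type arrays for Tfrc and Steap3, as for 9.59% of kept genes, and below them for Slc11a2, as for 6.01%.

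An additive model over the 4 arrays, fitted with limma to all 12060 genes with tissue and genotype as terms, gave fitted genotype differences of 0.72 for Tfrc (SE 0.13, adjusted p = 0.523), 0.49 for Steap3 (SE 0.16, adjusted p = 0.575), -0.41 for Slc11a2 (SE 0.12, adjusted p = 0.564), -0.58 for Steap1 (SE 0.16, adjusted p = 0.552) and -0.70 for Steap4 (SE 0.20, adjusted p = 0.564). The model has 1 residual degree of freedom, and the labels do not say whether the 2 arrays of a genotype share animals, so its error does not measure how animals vary. No gene of the table passed limma's adjusted threshold for genotype, in either direction (0%). At an unadjusted p under 0.05, limma gave 589 genes that were higher in F/F and 402 lower (4.88% and 3.33%), among them 2 members higher, Tfrc and Steap3, and 3 lower, Slc11a2, Steap1 and Steap4.

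**Figure D3:**
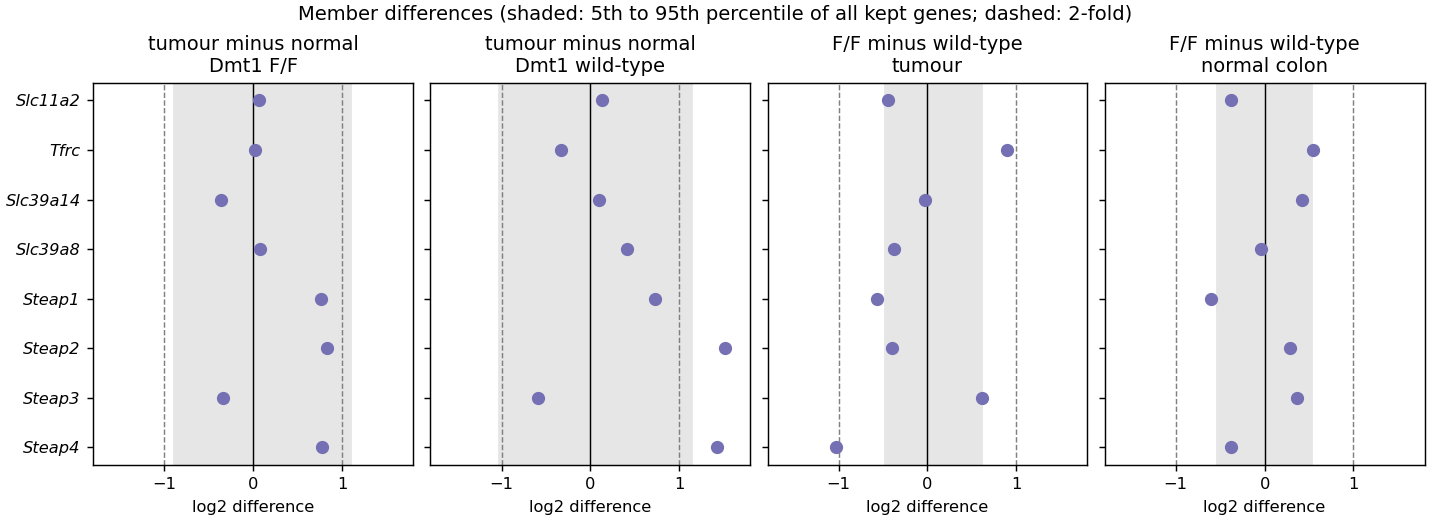
Log2 differences (horizontal axis) of the 8 genes in the 4 comparisons of 2 arrays, 1 point per gene; the shaded band holds the 5th to 95th percentile of all kept genes and dashed lines mark 2-fold. Steap2 and Steap4 pass 2-fold in wild-type tumour against normal colon, and Steap4 passes it downwards in F/F against wild-type tumour (-1.03).

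The zinc transporter relatives had the smallest ranges of the 8 genes over the arrays, 0.42 for Slc39a14 and 0.46 for Slc39a8. Slc39a14, a carrier of iron not bound to transferrin that also carries zinc and manganese, was at log2 6.13 in F/F tumour and 6.16 in wild-type tumour, and at 6.49 in F/F normal colon and 6.07 in wild-type normal colon. The F/F normal array stood above the other 3, which lay within 0.1 of each other. Its fitted difference was 0.20 for genotype (SE 0.17, adjusted p = 0.795 in limma) and -0.13 for tumour (SE 0.17, adjusted p = 0.588). Slc39a8, its closest relative and a carrier of manganese, zinc and iron, was at log2 7.18 in F/F tumour and 7.56 in wild-type tumour, and at 7.11 in F/F normal colon and 7.15 in wild-type normal colon. Here the wild-type tumour array stood above the other 3. Its fitted difference for tumour was 0.24 (SE 0.14, adjusted p = 0.271 in limma).

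The comparison of tissues asks which import genes differ in tumours. In all, 3 reductase family genes rose: Steap2 by 1.17 (SE 0.21, adjusted p = 0.0315 in limma), Steap4 by 1.10 (SE 0.20, adjusted p = 0.0314) and Steap1 by 0.75 (SE 0.16, adjusted p = 0.0422), each higher in both tumour arrays. These 3 of 8 stand beside 11% of all kept genes that rose by the same test, while none of the 8 fell (8.23% of kept genes). Of all genes called, 57.3% rose, and 46.4% after cyclic loess. At an unadjusted p under 0.05 in limma the same 3 were higher (22.7% of kept genes) and Steap3 was lower (16.1%). The Steap1 call was lost after quantile normalization (adjusted p = 0.0655) and cyclic loess (adjusted p = 0.0556), and both the Steap1 and the Steap4 calls without a genotype term (adjusted p = 0.132 and 0.0892 in limma).

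Steap2, a reductase of iron and copper, was at log2 6.28 in F/F tumour against 5.45 in F/F normal colon. In wild-type mice it was at 6.68 in tumour against 5.17 in normal colon. Its tumour difference was 0.83 in F/F and 1.51 in wild-type mice, or 1.78-fold and 2.85-fold. For Steap4 the tumour difference was 0.78 in F/F and 1.43 in wild-type mice, or 1.71-fold and 2.69-fold. That of Steap1 was of like size in both, 0.76 in F/F and 0.73 in wild-type mice. The gap between genotypes in the tumour difference was therefore -0.68 for Steap2, -0.65 for Steap4 and 0.03 for Steap1, and 10.4%, 11.6% and 92.4% of kept genes had a gap at least as large in either direction. Such a gap could not be tested, since it takes up the last degree of freedom.

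By 2-fold, no member was higher in F/F tumour than in F/F normal colon (5.98% of kept genes), and Steap2 and Steap4 were higher in wild-type tumour than in wild-type normal colon (6.56%). None was lower in either genotype (3.81% in F/F and 5.31% in wild-type mice). At 1.5-fold, Steap1, Steap2 and Steap4 were higher in the tumours of both genotypes (14.6% of kept genes in F/F and 17% in wild-type mice). None was lower in F/F tumour at 1.5-fold (10.5%), and Steap3 was lower in wild-type tumour (12.8%). In an alternative, F/F tumour was set against the wild-type normal array in place of the F/F one. This alternative was added after the data were seen, because of the position gene Hoxd13 above. The difference of the F/F tumour was then 1.11 for Steap2, 0.40 for Steap4, 0.16 for Steap1 and 0.02 for Steap3. Both tumour arrays were above both normal arrays for Slc39a8, Steap1, Steap2 and Steap4, as for 40.1% of kept genes, and below them for none of the 8 (29.2%).

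Other cell types and programmes moved between the tissues as well. Among genes of position along the colon (11 of 12 kept), 4 rose and 4 fell in tumour by limma, and all of these are named. Those that rose were Onecut2 (3.08) and the posterior genes Hoxb13 (1.91), Hoxd11 (1.81) and Hoxd10 (1.33). Hoxd13 (3.52) did not pass. Those that fell were Osr2 (-4.25), the ileal bile acid transporter Slc10a2 (-4.21), Cyp2c55 (-3.43) and Hoxb6 (-2.73), each lower in the tumours of both genotypes. Tissue and position along the colon therefore cannot be told apart on these arrays. Of 5 kept adipocyte markers, 3 fell, with a median of -2.01 over the 5, of which Plin1 was kept only through the F/F normal array. Of the kept genes, 10 of 11 Wnt targets, 6 of 11 proliferation genes, 6 of 8 fibroblast, 2 of 7 macrophage and 2 of 7 endothelial markers rose in tumour by limma, 1 fibroblast marker fell and no B cell marker passed. Among epithelial markers, 2 of 8 fell, Vil1 and Krt20. Of 7 kept neutrophil markers 2 rose, but 5 of the 7 reached the median level of all genes on the wild-type tumour array alone. Beside all these counts, 11% of all kept genes rose and 8.23% fell by the same test. Smooth muscle markers (8 of 8 kept) had median tumour differences of -0.44 in F/F and -1.71 in wild-type mice, and none passed. The part of these cell types, of the programmes and of position in the reductase values was not tested.

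**Figure D4:**
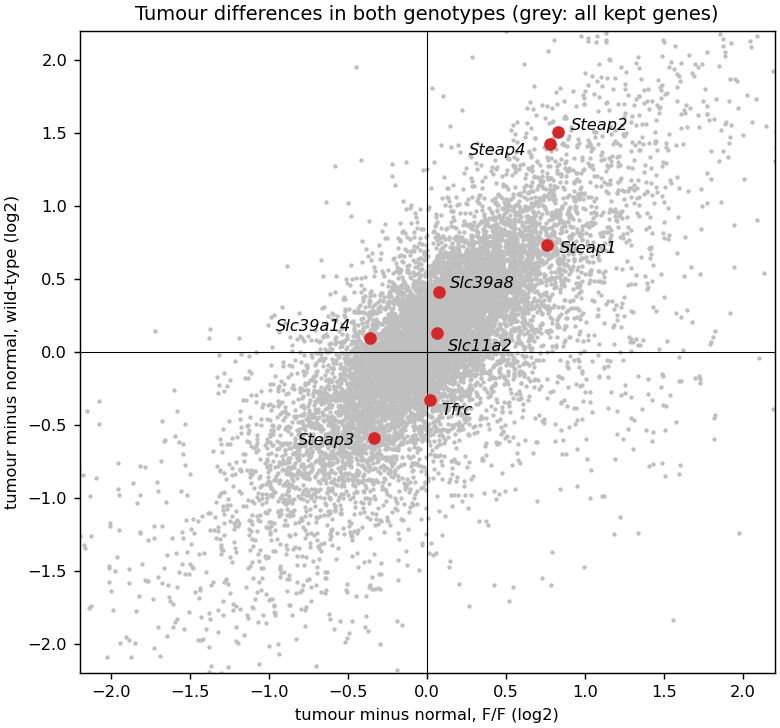
Tumour minus normal colon in F/F mice (horizontal axis, log2) against the same difference in wild-type mice (vertical axis, log2); grey points are the 12060 kept genes and red points the 8 import and reductase genes. Steap2 (0.83 and 1.51) and Steap4 (0.78 and 1.43) lie above the diagonal and Steap1 (0.76 and 0.73) near it; 293 genes beyond 2.2 on an axis are outside the frame.

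Steap3 had the opposite sign to its relatives, with a fitted tumour difference of -0.46 (SE 0.16, adjusted p = 0.108 in limma) and values of -0.34 in F/F and -0.59 in wild-type mice. Tfrc (-0.16, SE 0.13, adjusted p = 0.430) and Slc11a2 (0.10, SE 0.12, adjusted p = 0.595) did not pass either. The median tumour difference of the 8 genes was 0.07 in F/F and 0.27 in wild-type mice, against 0.04 and 0.08 over all kept genes. In the RefSeq annotation Steap1 and Steap2 are direct neighbours on mouse chromosome 5, with no annotated gene between them. Steap4 lies on the same chromosome, with 16 annotated genes between it and Steap1, 3 of them protein-coding. Steap3 is on chromosome 1.

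The mean of the inflammatory genes ordered the arrays as Steap4 did. The means of the Wnt targets, the fibroblast and macrophage markers and the other iron uptake genes had the same order, as did Steap1. Lists other than the inflammatory genes thus shared this order, and what lies behind it was not tested. Lcn2 belongs to both the inflammatory and the iron uptake list, so these lists are not separate. The list of inflammatory cytokines and acute-phase signals (11 of 16 genes kept) averaged log2 6.06 in F/F tumour and 7.38 in wild-type tumour. In normal colon it averaged 4.93 in F/F and 5.29 in wild-type mice. Of these 11 genes, 7 were lower by 2-fold or more in F/F than in wild-type tumour, beside 0.506% of all kept genes. They were led by Il1a (-2.48), Ccl3 (-2.10) and Il1b (-2.02). Neutrophil markers, over all 8 genes of the list whether kept or not, averaged log2 4.93 in F/F tumour and 5.86 in wild-type tumour, while normal colon had 3.90 in F/F and 4.30 in wild-type mice. Of the 7 that were kept, 5 reached the median level of all genes on the wild-type tumour array alone, so a count of those lower in F/F tumour would partly follow from the filter. Ly6g, a surface marker of neutrophils, went the other way, with an F/F minus wild-type difference of 0.83 in tumour, and is named after its values were seen. Elane, a granule protease of immature neutrophils, stayed below the median level of all genes on every array. Macrophage markers (7 of 8 kept) averaged 6.38 in F/F tumour and 6.43 in wild-type tumour, and in normal colon 5.54 in F/F and 5.90 in wild-type mice. Adipocyte markers (5 of 8 kept), of interest because Steap4 is also known from fat, ran the other way, with a median F/F minus wild-type difference of 0.47 in tumour, where Plin1 (-0.33) and Lpl (-0.05) were lower. Of the 5, Plin1 reached the median level of all genes on the F/F normal array alone. Over all 7 genes in the table, whether kept or not, they averaged log2 4.65 in F/F tumour and 4.47 in wild-type tumour. In normal colon these 7 averaged 6.57 in F/F and 5.55 in wild-type mice. The part of these cells in the Steap4 values was not tested.

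**Figure D5:**
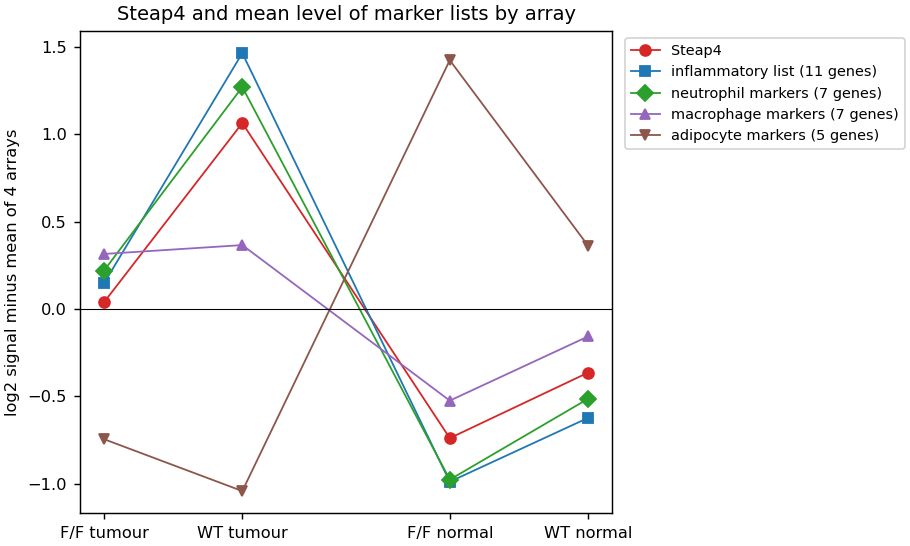
Log2 signal minus the mean of the 4 arrays (vertical axis) for Steap4 and for the mean of the kept genes of 4 lists, by array (horizontal axis); lines join the arrays for reading only. Steap4, the inflammatory list and the neutrophil markers were all highest in wild-type tumour and lowest in F/F normal colon, and the adipocyte markers were the reverse. Of the 7 neutrophil markers drawn, 5 reached the median level of all genes on the wild-type tumour array alone. Of the 5 adipocyte markers, 1 did so on the F/F normal array alone, so these peaks partly follow from the filter. Without the filter, the highest and lowest arrays of both lists were the same.

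The Steap4 promoter is shown because STAT and C/EBP factors carry cytokine signals to acute-phase genes, and capitals mark matches to the STAT motif TTCNNNGAA or the C/EBP motif TTGCNNAA on either strand. It is RefSeq sequence of build GRCm38.p6, chr5:7960222-7960521, plus strand, cut in the same way.
Steap4 promoter: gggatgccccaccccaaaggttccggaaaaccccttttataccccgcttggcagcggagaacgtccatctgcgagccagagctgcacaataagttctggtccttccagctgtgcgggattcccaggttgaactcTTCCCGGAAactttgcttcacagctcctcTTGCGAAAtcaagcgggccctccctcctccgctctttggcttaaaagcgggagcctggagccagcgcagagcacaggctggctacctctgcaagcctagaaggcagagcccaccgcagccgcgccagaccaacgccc

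It held 1 match to each motif, at positions -116 and -87 from the start, which do not overlap. Of 27025 windows, 8.42% held the STAT motif and 10.7% the C/EBP motif. The windows of Tfrc, Slc39a8, Steap1, Steap2 and Steap3 held neither, and 6 of the 8 members had a window in the table. The Tcf/Lef core CTTTGA, searched because Apc loss activates Wnt signalling, was found in the Slc39a8 window alone (1 match, 16.2% of windows). These motifs were all chosen after the windows were seen, so the shares are no test of the matches. A match describes letters in the window and shows no binding.

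Genes most like the 3 members that ranged over 1 log2 unit or more were ranked by the root mean square difference of their values after each gene was centred on its mean of 4 arrays. Nearest to Steap4 were Rgs16, an inhibitor of G protein signalling, at 0.040, the neutrophil collagenase Mmp8, which reached the median level of all genes on the wild-type tumour array alone, at 0.060 and the semaphorin Sema3e at 0.061, and 61 genes lay within 0.2. Steap2 was nearest to Ifitm2, an interferon-induced membrane protein, at 0.0089, Cyba, a subunit of NADPH oxidase, at 0.036 and Arid5b at 0.037, with 289 genes within 0.2. Closest to Steap1 were Shfl at 0.041, Slc15a3 at 0.052 and Arhgap23 at 0.057, with 411 within 0.2. With 4 arrays, such likeness is common and describes these arrays alone.

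Other iron uptake genes were taken from a list of 22, of which 18 were kept. In tumours, 4 of the 18 rose and 1 fell in limma, beside 11% and 8.23% of all kept genes. The siderophore-binding lipocalin Lcn2 rose by 3.55 (SE 0.16, adjusted p = 0.00381), Slc46a1, which carries folate and heme, by 1.38 (SE 0.14, adjusted p = 0.0136) and the zinc transporter Slc39a6 by 1.32 (SE 0.16, adjusted p = 0.0165). Between genotypes none passed. In F/F against wild-type tumour the largest differences were -1.11 for lactoferrin, Ltf, which was kept only through the wild-type tumour array, and -0.95 for Lcn2, and in normal colon the largest was -1.42 for Lcn2. The list's median tumour difference was -0.01 in F/F and -0.02 in wild-type mice, against 0.04 and 0.08 over all kept genes.

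Of 9 other ferrireductases and cytochrome b561 genes, 7 were kept, 1 rose in tumour and 1 fell, where 11% and 8.23% of all kept genes did. Frrs1, a reductase of the cytochrome b561 type, was at log2 8.61 in F/F tumour and 9.11 in wild-type tumour, and at 8.10 in F/F normal colon and 8.37 in wild-type normal colon, and rose in tumour by 0.63 (SE 0.12, adjusted p = 0.0361 in limma). The quinone reductase Nqo1 fell by 1.67 (SE 0.13, adjusted p = 0.00884 in limma). It was also the member of the list with the largest genotype difference, at log2 6.18 in F/F tumour and 5.39 in wild-type tumour, and at 7.95 in F/F normal colon and 6.96 in wild-type normal colon. Cybrd1, the duodenal ferrireductase that serves Dmt1 there, was below the median level of all genes on every array (3.45 to 4.02), as was the second transferrin receptor Tfr2 (3.05 to 3.09); both are named after their values were seen.

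Among 18 iron regulatory and handling genes, 16 were kept, 2 rose in tumour and 3 fell, beside the same 11% and 8.23% of all kept genes. Cp, a copper ferroxidase, rose by 1.97 (SE 0.13, adjusted p = 0.00618 in limma), the iron hormone Hamp by 1.23 (SE 0.23, adjusted p = 0.0340), although it reached the median level of all genes on the wild-type tumour array alone and was kept only through it, and Heph, the ferroxidase of iron export, fell by 1.22 (SE 0.18, adjusted p = 0.0228). None passed for genotype. In F/F against wild-type tumour the largest differences were 0.90 for Heph, -0.90 for Cp and -0.55 for Hamp, and in normal colon -0.72 for Cp, -0.72 for Hamp and 0.52 for the heme oxygenase Hmox1, both of which lay below the median level of all genes on both normal arrays. The mRNAs of Aco1 and Ireb2, which encode the iron regulatory proteins, differed by 0.04 and -0.09 in tumour and by 0.35 and 0.32 in normal colon, values picked out for their role in Tfrc regulation after they were seen.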

How the data were processed

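Gene expression was measured on 4 arrays, and the values are log2 signals per probe set as deposited by the authors, which the submitters' processing notes credit to RMA and oligo; versions and genome build are not given in the sources used here. RMA matches the arrays at the level of single probes and gives no error for a single value. The deposited values per probe set still differed between arrays, with medians from log2 4.27 in F/F normal colon to 4.34 in both tumours. Of 41345 probe sets, 23521 had exactly 1 gene in the platform annotation, and 23328 of these were named by gene ID through RefSeq (GRCm38.p6). Where a gene had several probe sets, that of highest mean stood for it, and genes whose highest value reached log2 4.67, the median level of all genes, were kept. Groups follow the sample titles. Differences of 2 arrays were counted at 2-fold, with 1.5-fold as an alternative. limma 3.58.1 in R 4.3.3 fitted tissue and genotype additively (eBayes with trend, Benjamini-Hochberg at 0.05, 1 residual and 3.4 prior degrees of freedom), and all adjusted p-values are its own. Array number limits the precision. The members and lists were chosen with earlier results of these data known. The sequence motifs were chosen after the windows were seen. Genes outside the 8 members were named by size of difference, up to 3 per list and comparison, except where said. Columns of other samples numbered 0.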

Additional observations from a re-analysis of the deposited data

Results flagged for a closer look

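In 4 cases the same contrast had opposite signs in the 2 tissues or genotypes. None of these differences was tested, and with 1 array per group a sign change is common: 44.5% of kept genes had opposite genotype differences in tumour and normal colon, and 21.7% had opposite tumour differences in the genotypes. Steap2 was lower in F/F tumour (-0.40) and higher in F/F normal colon (0.28) than in wild-type mice. Slc39a14 differed by -0.03 in tumour and 0.42 in normal colon between F/F and wild-type mice, and its tumour difference was -0.36 in F/F and 0.09 in wild-type mice; the wild-type value turned to -0.02 after quantile normalization and cyclic loess. The tumour difference of Tfrc was 0.02 in F/F and -0.33 in wild-type mice, and the F/F value became -0.06 with each array centred on its median.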

How the results depend on the processing

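No paired analysis was possible because each group has 1 array and the labels number no replicates. For the same reason no array could be left out with an error remaining. For tumour against normal over both genotypes, the count of genes that fell moved to 1528 with each array centred on its median and to 651 without a genotype term, from 992. After cyclic loess 1063 rose and 1229 fell, so 46.4% of calls rose and not 57.3%. Of the members, Steap1 lost its call at a fitted difference of 0.61 after quantile normalization, 0.65 after cyclic loess and 0.75 without a genotype term, and Steap4 lost it at 1.10 without a genotype term, which left 1 member called, Steap2. At 1.5-fold in place of 2-fold, tumour minus normal had 1764 genes higher and 1269 lower in F/F mice, with 3 members higher, and 2055 higher and 1546 lower in wild-type mice, with 1 member, Steap3, lower. F/F minus wild-type then had 646 higher and 347 lower in tumour, with 2 members higher, and 449 higher and 482 lower in normal colon, with 1 member lower. When F/F tumour was set against the wild-type normal array, an alternative chosen after seeing the data, 1 member, Steap2, was higher by 2-fold in F/F tumour, as were 482 genes in all, and 253 genes were lower; Slc11a2, Slc39a14 and Tfrc then differed by -0.32, 0.06 and 0.56. In the additive model, the genotype differences of Tfrc, Steap3, Slc11a2, Steap1 and Steap4 kept their sign under the 7 other settings, and adjusted p for Tfrc ranged from 0.158 to 1. The cause of these changes was not tested, apart from the lower threshold and the changed baseline, which change the counts by construction. The Slc11a2 tumour difference over both genotypes, 0.10, was -0.02 after quantile normalization and -0.01 after cyclic loess.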
